A study of Mus musculus with 4 samples.

Results

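The genes described here encode the proteins of the mitochondrial ribosome. They were taken as every gene whose symbol begins with Mrpl or Mrps followed by a digit and which is named, alone, by at least 1 probe set of the array, with pseudogenes left out. This gave 76 genes among the 18193 genes named on the array, covered by 156 of its 45101 probe sets. Each gene was represented by the probe set with the highest mean log2 intensity over the 4 arrays, and 42 of the 76 genes had further probe sets that served as a check. Of the 76 genes, 49 encode proteins of the large subunit and 27 carry the other Mrps names of the small subunit. Mrps30 and Mrps18a are counted with the large subunit, where their proteins sit in mammals. Expression was measured on Affymetrix arrays of mouse progenitor cells sorted from bone marrow, with 1 array for each of 4 groups. The groups were Fbw7-deficient LSK cells, wild-type (WT) LSK cells, Fbw7-deficient myeloid progenitors (MP) and WT MP. LSK cells lack lineage markers and carry Kit and Sca1, a gate that holds the stem cells and multipotent progenitors, and MP share that gate except for the absence of Sca1. Animals of both genotypes had been given 3 intraperitoneal doses of polyI:C, a double-stranded RNA mimic, at 20 ug per g, and marrow was taken 2 weeks after treatment. Each genotype was a pool of 3 animals, split into LSK cells and MP by the sort, so both arrays of a genotype come from the same animals. The labels used here do not state the strain or age of the mice, the allele, or what drove its deletion. With 1 array a group no error between samples can be given and no test was made, so each difference below lies between 2 arrays.

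The mitochondrial ribosome translates the few messages of the mitochondrial genome, which encode core subunits of the respiratory chain and the ATP synthase. Its RNAs are made in the mitochondrion, whereas its proteins are encoded in the nucleus, made in the cytosol and imported. Many of them descend from bacterial ribosomal proteins, and others occur in the mitochondrial ribosome alone. Hematopoietic stem cells are known for low mitochondrial activity relative to the progenitors they give rise to. Fbw7, encoded by Fbxw7, is the substrate-binding subunit of a ubiquitin ligase that marks MYC, cyclin E, Notch and other proteins for degradation, and MYC is a known activator of ribosome and mitochondrial genes.

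The promoters of 67 of the 76 genes are in the RefSeq table of build GRCm38.p6 used here. The sequences below are the 250 bases before the start site of 4 of them, 5′ to 3′ on the strand of the gene. They are shown because Mrps22 had the highest genotype difference in LSK cells, Mrps18b had one of the lowest levels in WT LSK relative to WT MP, Mrps11 starts head to head with another member, Mrpl46, and Mrpl52 was the member that was lower in Fbw7-deficient LSK cells. Capitals mark matches, on either strand, to the 4 motifs given after them.
Mrps22 promoter, ETS-type match, GRCm38.p6 chr9:98601680-98601929, minus strand: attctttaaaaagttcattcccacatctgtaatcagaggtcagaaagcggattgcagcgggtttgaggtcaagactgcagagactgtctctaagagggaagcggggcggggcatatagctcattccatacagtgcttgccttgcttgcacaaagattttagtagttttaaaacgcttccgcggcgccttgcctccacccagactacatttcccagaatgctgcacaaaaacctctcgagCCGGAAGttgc
Mrps18b promoter, NRF1-type match, GRCm38.p6 chr17:35916441-35916690, minus strand: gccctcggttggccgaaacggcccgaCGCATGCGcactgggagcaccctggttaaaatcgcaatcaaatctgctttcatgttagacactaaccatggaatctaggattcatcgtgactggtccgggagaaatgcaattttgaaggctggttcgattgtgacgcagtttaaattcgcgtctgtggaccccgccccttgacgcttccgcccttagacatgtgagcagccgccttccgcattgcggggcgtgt
Mrps11 promoter, YY1-type match, GRCm38.p6 chr7:78782881-78783130, plus strand: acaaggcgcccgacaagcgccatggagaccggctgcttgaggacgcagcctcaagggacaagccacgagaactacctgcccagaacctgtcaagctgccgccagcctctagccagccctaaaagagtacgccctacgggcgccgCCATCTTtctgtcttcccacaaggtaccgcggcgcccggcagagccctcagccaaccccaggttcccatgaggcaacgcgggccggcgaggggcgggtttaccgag
Mrpl52 promoter, YY1-type and ETS-type matches, GRCm38.p6 chr14:54426659-54426908, plus strand: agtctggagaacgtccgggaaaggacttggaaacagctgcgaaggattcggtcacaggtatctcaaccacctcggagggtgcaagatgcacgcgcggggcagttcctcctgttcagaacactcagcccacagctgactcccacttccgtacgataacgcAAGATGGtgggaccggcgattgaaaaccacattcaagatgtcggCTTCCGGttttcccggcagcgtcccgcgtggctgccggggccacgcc
The 4 motifs were the E-box CACGTG, the NRF1-type GCATGCG, the ETS-type CCGGAAG and the YY1-type AAGATGG, searched on both strands over 300 bases that include 50 after the start. No motif lies within another, and the NRF1-type match in Mrps18b is read on both strands, overlapping itself. The ETS-type motif was in 34.2% of 73 member promoters, against 16.6% of the 12623 promoters of genes that passed the level filter and 8.86% of all 32851 promoters of that length. The YY1-type motif was in 17.8% of member promoters, against 6.89% and 6.34%. The NRF1-type motif was in 11.0% of member promoters, against 5.94% and 3.58%. The E-box was in 9.59% of member promoters, close to the 9.68% among genes that passed the filter, and in 7.15% of all promoters. The median GC content was 58.7% for member promoters, 60.3% for genes that passed the filter and 52.7% for all promoters. A match is a run of letters and not a site known to be bound.

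All 76 members passed the level filter, an intensity of at least 157 on 1 array or more, which is the median of all values and was passed by 12239 of the 18193 genes. Their intensities ran up to 11777 for Mrpl51 in Fbw7-deficient MP and down to 317 for Mrps11 in WT LSK. Median intensities over all probe sets lay between 155 and 159 on the 4 arrays, which the processing makes nearly equal. Control ratios of RNA quality differed: the 3′ to 5′ ratio of the Gapdh control was 2.75 in Fbw7-deficient LSK, 4.30 in WT LSK, 2.95 in Fbw7-deficient MP and 2.60 in WT MP, and that of Actb was 2.89, 3.53, 2.99 and 2.67 in the same order of arrays. Fbxw7 read 1103 in Fbw7-deficient LSK, 1355 in WT LSK, 958 in Fbw7-deficient MP and 691 in WT MP. The labels used here do not state which exons were deleted, so these values do not check the genotypes. The stem cell gene Mecom read 1006 and 3043 in the LSK arrays of Fbw7-deficient and WT mice and 119 and 145 in their MP arrays, whereas Kit, carried by both gates, read 5313 and 6723 in LSK and 4190.0 and 6509.9 in MP. Ly6a, which encodes Sca1, was not analysed here.

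Most members shared their lowest and their highest array. The lowest of a gene's 4 values was on the WT LSK array for 65 of the 76 members, where 36.5% of all genes that passed the filter had their lowest value there. The highest was on the Fbw7-deficient MP array for 60 members, against 31.1% of all genes. Both held for 57 members, against 20.6% of all genes. Expressed as log2 intensity minus the mean of the gene over the 4 arrays, the median member stood at 0.05 in Fbw7-deficient LSK, -0.30 in WT LSK, 0.26 in Fbw7-deficient MP and -0.01 in WT MP, while the median of all genes was between -0.02 and 0.01 on each array. The median member thus stood close in Fbw7-deficient LSK and in WT MP. The WT LSK array, on which members were low, was also the one with the highest 3′ to 5′ ratios, whose part in the result was not tested.

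**Figure D1:**
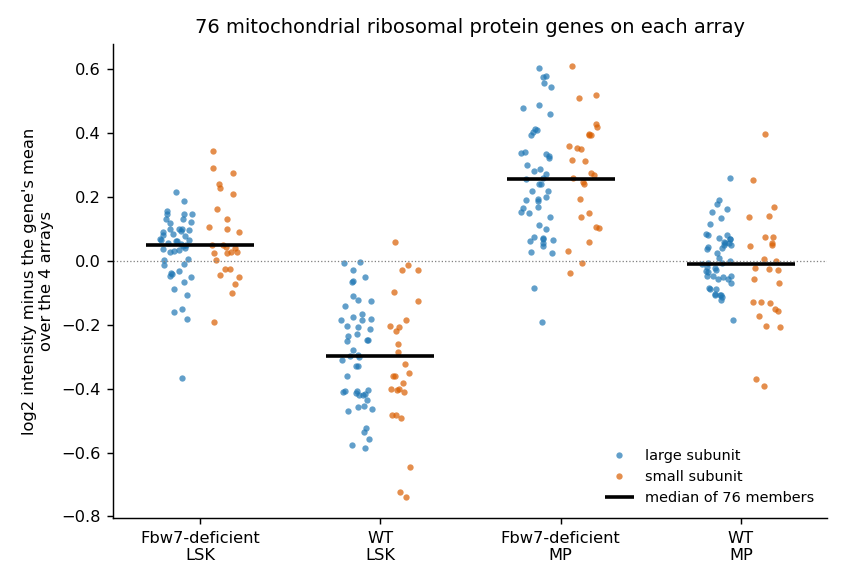
Each point is 1 of the 76 genes, as log2 intensity minus the mean of that gene over the 4 arrays (y axis), for each array (x axis), coloured by subunit, and bars are medians over the 76 genes. The WT LSK median is at -0.30 and the Fbw7-deficient MP median at 0.26, with the other 2 arrays near 0.

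The first comparison, Fbw7-deficient against WT LSK cells, lies within the compartment that holds the stem cells named in the study's title. In this comparison 75 of 76 members were higher in Fbw7-deficient LSK cells, where 50.7% of all genes were above 0. The median log2 difference was 0.35 over members, with quartiles of 0.23 and 0.44, and 0.00 over all genes. At least 1.3-fold higher were 29 members, or 38.2% of them, against 10% of all genes, and none was 1.3-fold lower, against 14.2% of all genes. No member reached 2-fold in either direction, where 1.79% of genes were 2-fold higher and 1.95% 2-fold lower. The shift is thus small for each gene and shared across the list. In the large subunit 48 of 49 members were above 0 (median 0.32), and in the small subunit 27 of 27 (median 0.36). These are bulk arrays, so a change in the share of cells of a kind and a change in RNA per cell cannot be told apart.

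Mrps22, a small subunit protein without a bacterial counterpart whose human gene is known for mutations that impair mitochondrial translation, had the highest difference. It read 2999.6 in Fbw7-deficient LSK against 1510.5 in WT LSK, and 3185 in Fbw7-deficient MP against 2164 in WT MP, which is 1.99-fold and 1.47-fold higher. Both WT arrays were below both Fbw7-deficient arrays, and WT LSK was the lowest. Mrps18b, 1 of 3 mammalian relatives of bacterial S18, read 2657 and 1621 in Fbw7-deficient and WT LSK, and 3858 and 3224 in Fbw7-deficient and WT MP (log2 differences 0.71 and 0.26). Mrps18c, also in the small subunit, read 4067 in Fbw7-deficient LSK against 3173 in WT LSK, and 5079 in Fbw7-deficient MP against 4715 in WT MP (0.36 and 0.11). Mrps18a, the relative found in the large subunit, read 1750 in Fbw7-deficient LSK against 1292 in WT LSK, and 2063 in Fbw7-deficient MP against 1991 in WT MP (0.44 and 0.05). The 3 paralogs were all lowest on the WT LSK array and differed less between genotypes in MP than in LSK. Mrps10, the counterpart of a bacterial protein of the small subunit head, read 1903 in Fbw7-deficient LSK and 1160.5 in WT LSK (log2 0.71), with 1926 and 1629.8 in Fbw7-deficient and WT MP (log2 0.24). Its further probe set, with values of at most 202, had log2 differences of 0.04 and 0.11. Mrps5, near the path by which messenger RNA enters the ribosome, read 1409.9 in Fbw7-deficient LSK against 923 in WT LSK, and 1601 in Fbw7-deficient MP against 1058 in WT MP (0.61 and 0.60). Of its 4 dimmer probe sets, 3 were above 0 in LSK and 1 was at -0.23, so the size of its difference is uncertain. Mrps12, whose bacterial counterpart lies at the decoding centre, had log2 differences of 0.26 in LSK and 0.47 in MP.

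In the large subunit, the 3 proteins of the stalk that recruits translation factors were Mrpl10, Mrpl11 and Mrpl12. Mrpl12, the flexible arm of the stalk, read 3651 in Fbw7-deficient LSK against 2314 in WT LSK, and 4687 in Fbw7-deficient MP against 3409 in WT MP (log2 0.66 and 0.46). Mrpl11, at the base of the stalk, read 4777 in Fbw7-deficient LSK against 3922 in WT LSK, and 4836 in Fbw7-deficient MP against 5002 in WT MP (0.28 and -0.05). Mrpl10, which holds the arm, had log2 differences of 0.26 and 0.00. The stalk genes were thus all higher in Fbw7-deficient LSK, while in MP the difference was seen for Mrpl12 of the 3. Among the proteins around the exit of the peptide tunnel, Mrpl47 read 2539 in Fbw7-deficient LSK against 1569.9 in WT LSK, and 3492 in Fbw7-deficient MP against 2150.0 in WT MP (log2 0.69 and 0.70). Mrpl22, a lining protein of the tunnel, had log2 differences of 0.61 and 0.45, and Mrpl45, which anchors the ribosome at the inner membrane, 0.36 and 0.24. Mrpl23 (0.12 and 0.11) and Mrpl24 (0.03 and -0.14) of the same site had smaller differences. Mrpl38, of the central protuberance, read 2048 in Fbw7-deficient LSK and 1225 in WT LSK (log2 0.74), with 2344 and 1639 in Fbw7-deficient and WT MP (log2 0.52). Its dimmer probe set above the filter had 0.23 in LSK and -0.09 in MP. Mrpl40, Mrpl46 and Mrpl48 of that site had 0.25, 0.37 and 0.06 in LSK, and 0.22, 0.25 and 0.02 in MP.

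At the low end of the LSK comparison was Mrpl52, a large subunit protein of the mitochondrial ribosome alone. It read 2924 in Fbw7-deficient LSK against 3322 in WT LSK, and 5615 in Fbw7-deficient MP against 3693 in WT MP (log2 -0.18 and 0.60). Fbw7-deficient LSK was its lowest array and Fbw7-deficient MP its highest. Its 2 further probe sets above the filter gave the same directions, with -0.18 and -0.31 in LSK and 0.87 and 0.68 in MP. Mrps17 (0.01), Mrpl24 (0.03), Mrpl57 (0.04), Mrpl48 (0.06) and Mrpl23 (0.12) followed. Of these 5, Mrps17 and Mrpl57 had 0.26 and 0.31 in MP.

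**Figure D2:**
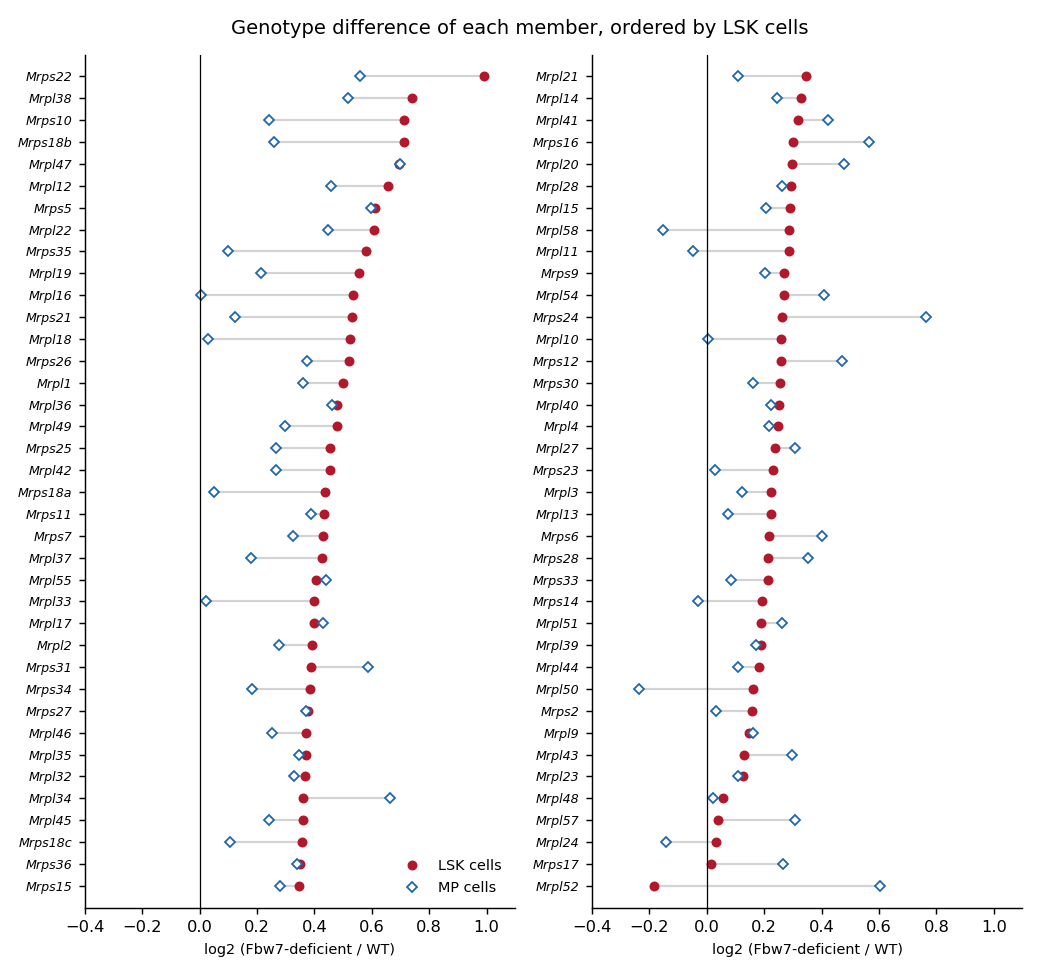
Each row is a gene, ordered by the LSK comparison from the upper left to the lower right, with the log2 ratio of Fbw7-deficient to WT on the x axis. Filled red points are LSK cells, open blue diamonds are MP, and the grey line joins both values of a gene: 75 red points lie right of 0 and Mrpl52 lies left of it at -0.18.

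Among the further probe sets of the members, 58 in 33 genes passed the level filter, and these were not used to form the values above. In the LSK comparison 48 of the 58 were above 0 with a median of 0.21, with 13 past 1.3-fold upward and 1 downward. In the MP comparison 46 of the 58 were above 0 with a median of 0.12. All further probe sets of a gene had the direction of the one used in 25 of the 33 genes in LSK and 22 in MP. The same counts over further probe sets of all genes were not taken. Probe sets of 1 gene share its RNA and are not replicates of a condition. When each gene was instead the mean of all its probe sets, 72 of the 75 members that then passed were above 0 in LSK (median 0.28), but 17 rather than 29 were 1.3-fold higher, against 9.15% of the 10924 genes that passed in this setting. In MP the count past 1.3-fold was then 13, against 6.41% of genes.

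The comparison of Fbw7-deficient with WT MP lies outside the stem cell gate and uses neither LSK array. In MP 71 of 76 members were higher in Fbw7-deficient cells, against 49.6% of all genes. The median log2 difference was 0.26 over members, with quartiles of 0.11 and 0.39, and -0.00 over all genes. At least 1.3-fold higher were 20 members, or 26.3%, against 8.16% of all genes, and none was 1.3-fold lower, against 11.1%. None reached 2-fold, which 0.825% of genes did upward and 1.49% downward. The large subunit had 45 of 49 members above 0 (median 0.25) and the small subunit 26 of 27 (median 0.28). The 3′ to 5′ ratios were close in these 2 arrays, at 2.95 and 2.60 for Gapdh in Fbw7-deficient and WT MP. The poly-A control RNAs added before labelling were lower by a median log2 of -0.66 in Fbw7-deficient MP, against -0.02 in Fbw7-deficient LSK relative to WT LSK, and the part of this in the result was not tested.

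Mrps24, the counterpart of a bacterial protein at the messenger RNA entry, had the highest difference in MP. It read 3239 in Fbw7-deficient MP against 1909.9 in WT MP, a ratio of 1.70, and 1976 in Fbw7-deficient LSK against 1649 in WT LSK. Its further probe set had log2 differences of 0.60 in MP and 0.48 in LSK. Mrpl47 followed, then Mrpl34, a small protein of the large subunit, at 2367 and 1495 in Fbw7-deficient and WT MP (log2 0.66), with 1558 in Fbw7-deficient LSK and 1213 in WT LSK (log2 0.36). Mrpl52 (0.60), Mrps5 (0.60) and Mrps31 (0.59) came next. Mrps31, of the small subunit, read 1747 in Fbw7-deficient MP against 1164 in WT MP, and 1867 in Fbw7-deficient LSK against 1428 in WT LSK. Its WT MP value was its lowest of the 4, unlike most members. Below 0 in MP were 5 members, against 50.4% of all genes: Mrpl50 (-0.23), Mrpl58 (-0.15), Mrpl24 (-0.14), Mrpl11 (-0.05) and Mrps14 (-0.03). Mrpl58, also known as Ict1, is a peptidyl-tRNA hydrolase that rescues stalled mitochondrial ribosomes, and read 2566 in Fbw7-deficient MP against 2850.0 in WT MP, and 2587 in Fbw7-deficient LSK against 2122 in WT LSK. Mrpl50 read 1228 and 1445 in Fbw7-deficient and WT MP, but its further probe set was higher in Fbw7-deficient MP (log2 0.25), so its sign is not settled. The sign of Mrpl11 is not settled either, with further probe sets at -0.00 and 0.07 in MP.

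Above 0 in both genotype comparisons were 70 of 76 members, against 31.4% of all genes. At least 1.3-fold higher in both were 11 members, or 14.5%, against 3.12% of all genes: Mrpl12, Mrpl17, Mrpl22, Mrpl36, Mrpl38, Mrpl47, Mrpl55, Mrps5, Mrps11, Mrps22 and Mrps31. These comparisons share no array but share the 2 pools of mice. Over the 76 members the sizes of both differences were loosely related, with Pearson's r of 0.30 and Spearman's rho of 0.32 across genes, below the r of 0.44 and rho of 0.39 over all 12239 genes. The LSK minus MP difference of these differences had a median of 0.09 over members, with 56 above 0 against 50% of all genes. In it 10 members were at least 1.3-fold above (13.2%, against 11.9% of all genes) and 2 at least 1.3-fold below (2.63%, against 12.4%), and none was past 2-fold, against 2.2% of genes upward and 1.32% downward. At the upper end were Mrpl16 (0.53), Mrpl18 (0.50), Mrps35 (0.48), Mrps10 (0.47) and Mrps18b (0.45). Mrpl16, the counterpart of a bacterial protein at the peptidyl transferase centre, read 4214 in Fbw7-deficient LSK against 2907 in WT LSK, and 4235 in Fbw7-deficient MP against 4219 in WT MP. WT LSK alone stood apart for it. At the lower end were Mrpl52 (-0.79), Mrps24 (-0.50) and Mrpl34 (-0.30).

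**Figure D3:**
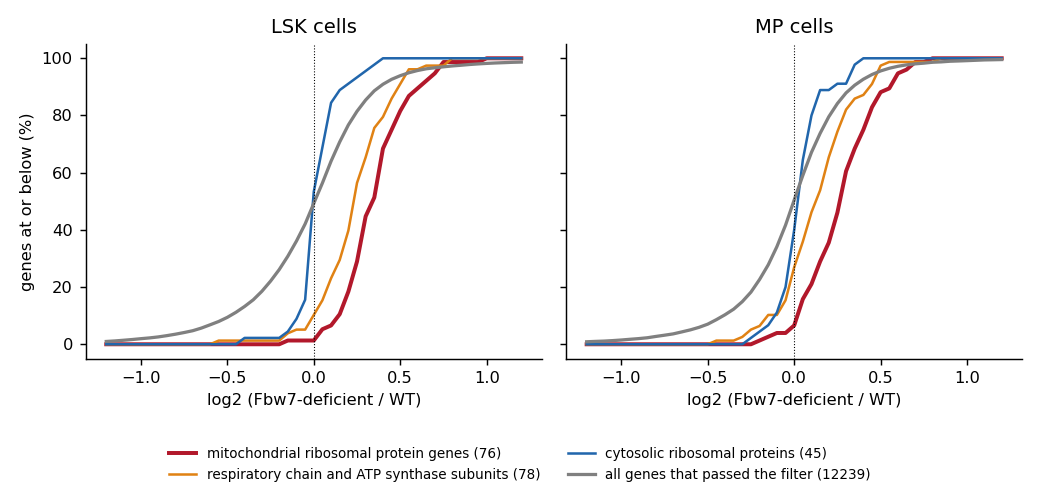
Lines give the percent of genes at or below each log2 ratio of Fbw7-deficient to WT, in LSK cells (left) and MP (right), for the 76 members, 78 respiratory chain genes, 45 cytosolic ribosomal protein genes and all 12239 genes that passed the filter. The member line lies to the right of the line for all genes over most of the range, with medians of 0.35 in LSK and 0.26 in MP, against 0.00 and -0.00 for all genes.

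WT LSK against WT MP compares the populations in animals with intact Fbw7. Members were lower in WT LSK: 68 of 76 were below 0, against 52.0% of all genes, with a median of -0.30, against -0.02 over all genes. At least 1.3-fold lower were 27 members, or 35.5%, against 13.3% of all genes, and 1 was 1.3-fold higher, or 1.32%, against 20.7%. The count of lower members was 17 with the mean of all probe sets of a gene, where 12.4% of all genes were 1.3-fold lower. It was 44 with arrays centred on the gene median, which moved the median of all genes to -0.13 and the share of all genes 1.3-fold lower to 21.0%. The members' median minus that of all genes was -0.28 with and without centring. The Gapdh 3′ to 5′ ratio was 4.30 in WT LSK against 2.60 in WT MP, and its part in the result was not tested. By the probe sets used, Mrps21, the counterpart of a bacterial small subunit protein, was the 1 member past 2-fold. Of all genes, 2.4% were past 2-fold in that direction and 5.05% in the other. Mrps21 read 875 in WT LSK against 1902 in WT MP, 2.17-fold lower. In Fbw7-deficient cells it read 1266 in LSK and 2071 in MP, 1.64-fold lower in LSK. Mrps18b was at 1621 in WT LSK and 3224 in WT MP (1.99-fold lower). Mrpl18, whose bacterial counterpart binds 5S ribosomal RNA, read 2593 in WT LSK and 4506 in WT MP (log2 -0.80), and Mrpl55 had 512 and 862 (log2 -0.75). Mrps18a (-0.62) and Mrps35 (-0.62) followed. Higher in WT LSK were 8 members, led by Mrps6, a small subunit protein, with 2988 in WT LSK and 2218 in WT MP (log2 0.43). Its further probe set had -0.04, so its direction is not settled. Mrps31 (0.30), Mrps9 (0.18), Mrpl43 (0.15) and Mrps17 (0.11) came after it. This comparison shares the WT LSK array with the LSK genotype comparison, so the values stand side by side and one is no evidence for the other.

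Fbw7-deficient LSK against Fbw7-deficient MP uses neither WT array. It shares an array with each genotype comparison, and its values follow from the genotype and WT population differences, so it is no separate evidence. Here 62 of 76 members were lower in LSK, against 48.1% of all genes, with a median of -0.19, against 0.01 over all genes. At least 1.3-fold lower were 16 members, or 21.1%, against 10.5% of all genes, and none was 1.3-fold higher, against 17.2%. By the probe sets used, none was past 2-fold, against 3.86% of genes upward and 1.63% downward. With the mean of all probe sets of a gene 9 were 1.3-fold lower, against 9.05% of genes. The Gapdh ratios of these arrays were close, at 2.75 in Fbw7-deficient LSK and 2.95 in Fbw7-deficient MP. The poly-A control RNAs were higher in Fbw7-deficient LSK by a median log2 of 0.84, and the part of this in the result was not tested. Mrpl52 (-0.94), Mrpl55 (-0.79), Mrps24 (-0.71), Mrps21 (-0.71), Mrpl20 (-0.70) and Mrpl54 (-0.64) were the lowest. Mrpl52 read 2924 in Fbw7-deficient LSK against 5615 in Fbw7-deficient MP. Its further probe sets above the filter had -1.28 and -1.21, which is past 2-fold lower. Mrpl20, the counterpart of a bacterial assembly protein, read 1827 in Fbw7-deficient LSK and 2979 in Fbw7-deficient MP, with 1488 and 2139.5 in the WT arrays of LSK and MP. Above 0 were 14 members, against 51.8% of all genes, led by Mrpl50 (0.35), Mrps9 (0.25), Mrps6 (0.24), Mrps2 (0.17), Mrpl24 (0.11) and Mrpl44 (0.10). The direction of Mrpl50 is not settled, since its further probe set above the filter had -0.87 here. That probe set had -1.12 in WT LSK against WT MP. Mrps2, Mrps6, Mrps9, Mrps31, Mrpl9 and Mrpl44 were higher in LSK than in MP in both genotypes by the probe set used. For 4 of these the direction is not settled, since further probe sets were lower in WT LSK: Mrps2 at -0.61, Mrps6 at -0.04, Mrpl9 at -0.68 and -0.07, and Mrpl44 at -0.67, -0.30 and -0.07. The 3 further probe sets of Mrps9 were above 0 in both genotypes, and Mrps31 had none that passed the filter. In both genotypes, then, most members were lower in LSK than in MP.

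**Figure D4:**
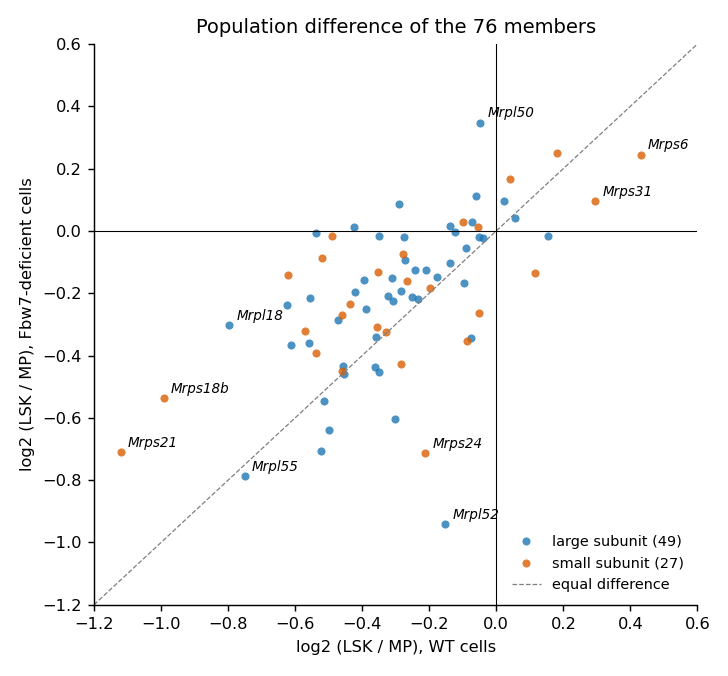
Each point is 1 of the 76 genes, with the log2 ratio of LSK to MP in WT cells on the x axis and in Fbw7-deficient cells on the y axis, coloured by subunit, and the dashed line marks equal differences. Most points lie below 0 on both axes, with Mrps21 farthest left at -1.12 and Mrpl52 lowest at -0.94.

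Markers of cell identity also differed in these comparisons. In LSK cells all 5 stem cell markers named on the array (Mecom, Hlf, Tek, Procr and Kit) were lower in the Fbw7-deficient array, with a summed intensity of 9243 against 17999 in WT, and 4921 and 7492 in Fbw7-deficient and WT MP. Kit, carried by both gates, made up most of the MP sums, with 4190 in Fbw7-deficient and 6510 in WT MP. Of the LSK sums it made up 5313 in Fbw7-deficient and 6723 in WT. All 5 granulocyte-monocyte progenitor markers were higher in Fbw7-deficient LSK, with a sum of 99122 against 52289 in WT LSK, and 137653 in Fbw7-deficient MP against 134448 in WT MP. All 5 erythroid markers were higher in both comparisons, with sums of 18428 in Fbw7-deficient LSK against 5624 in WT LSK, and 46397 in Fbw7-deficient MP against 27652 in WT MP. Of the LSK sum, 11215 in Fbw7-deficient and 1288.5 in WT came from Slc4a1, and the median log2 difference over the 5 was 0.45 in LSK and 0.94 in MP. Over the 4 proliferation markers, Mki67, Top2a, Mcm5 and Pcna, the sums were 61449 in Fbw7-deficient LSK against 58691 in WT LSK and 59093 in Fbw7-deficient MP against 62725 in WT MP, and none of the 4 passed 1.3-fold in a genotype comparison. Of the T and NK cell markers, Cd3e read between 239 and 303 on the 4 arrays and Cd3g between 38.2 and 45.6, under the level filter. Itgam, of mature myeloid cells, read between 62.7 and 78.1. The sums of the 3 megakaryocyte markers were 2816 in Fbw7-deficient LSK against 7935 in WT LSK, and 3958 in Fbw7-deficient MP against 6604 in WT MP. Pf4 (log2 -1.77 in LSK and -0.81 in MP) and Itga2b (-1.36 and -0.71) were lower, whereas Gp1bb had 0.07 and -0.07. The sums of the 5 lymphoid markers were 23162 in Fbw7-deficient LSK against 22110 in WT LSK, and 1461 in Fbw7-deficient MP against 3237 in WT MP. In LSK these markers differed both ways, with Flt3 at -0.59, Il7r at 0.09, Dntt at 0.26, Cd79a at 0.51 and Vpreb1 at 0.86 on the log2 scale. The part of these differences in the member differences was not tested.

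Other genes of the same pathway were taken from lists, whose counts stand beside 50.7% of all genes above 0 in LSK and 49.6% in MP, and 10% and 8.16% at least 1.3-fold higher. Of the mitoribosomal proteins that carry other names, 4 were named on the array, and all 4 were higher in Fbw7-deficient cells in both populations. Gadd45gip1, which encodes a large subunit protein also known as CRIF1, read 1386 in Fbw7-deficient LSK against 667 in WT LSK, and 2082 in Fbw7-deficient MP against 1135 in WT MP (log2 1.06 and 0.88). Its LSK difference was larger than that of any of the 76 members. It was singled out after its values were seen, as were the examples from the lists that follow. Ptcd3 (0.42 and 0.28), Chchd1 (0.22 and 0.20) and the GTP-binding protein gene Dap3 (0.13 and 0.06) had smaller ones. Of 9 translation factor genes, 8 were above 0 in LSK and 7 in MP, with medians of 0.53 and 0.27, and 5 and 2 were at least 1.3-fold higher. Tufm, the mitochondrial elongation factor that brings transfer RNA, read 4943 in Fbw7-deficient LSK and 3344 in WT LSK, with 5294 in Fbw7-deficient MP and 4396 in WT MP. Tsfm, its exchange factor, had log2 differences of 0.56 and 0.28, the translocation factor Gfm1 0.53 and 0.52, and the initiation factor Mtif2 0.13 and -0.02. Mtrf1l, a release factor, was lower at -0.15 and -0.10. Of 15 mitochondrial aminoacyl tRNA synthetases, 14 were above 0 in each population (medians 0.22 and 0.19).

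Assembly and ribosomal RNA factors had smaller medians, 0.14 in LSK and 0.13 in MP, with 21 and 24 of 28 above 0. The assembly factor Mpv17l2 (0.52 and 0.49) and the GTPase Noa1 (0.46 and 0.46) were at least 1.3-fold higher in both, whereas Trub2, a pseudouridine synthase, had -0.08 in LSK and -0.70 in MP. Tfb1m, a methyltransferase of mitochondrial ribosomal RNA on this list, had 0.07 and 0.27. Of 9 mitochondrial transcription and RNA processing factors, 7 were above 0 in LSK and 8 in MP (medians 0.16 and 0.18). Tfam, the packaging and transcription factor of mitochondrial DNA, read 2423 in Fbw7-deficient LSK and 2424 in WT LSK, with 2313 in Fbw7-deficient MP and 2736 in WT MP. Polrmt, the mitochondrial RNA polymerase, had 0.16 and 0.48, and its partner Tfb2m 0.39 and 0.09. Of 78 respiratory chain and ATP synthase subunits, 70 were above 0 in LSK (median 0.23) and 57 in MP (median 0.12). Of 45 cytosolic ribosomal protein genes, 21 were above 0 in LSK (median -0.00) and 27 in MP (median 0.02), and in WT LSK against WT MP their median was 0.02. The RNA of Myc itself had log2 differences of 0.19 in LSK and 0.13 in MP.

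**Figure D5:**
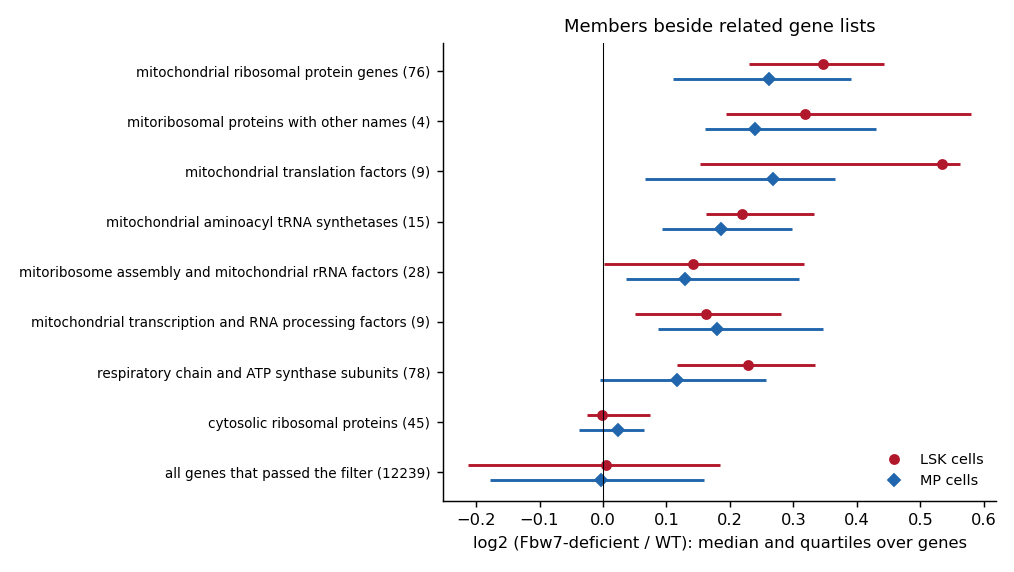
Points are medians over genes of the log2 ratio of Fbw7-deficient to WT, and lines run between the quartiles over genes, not between replicates, for each list (y axis, with the number of genes). Red circles are LSK cells and blue diamonds are MP: the members are at 0.35 and 0.26, cytosolic ribosomal proteins at -0.00 and 0.02.

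Many members start beside another gene. Of the 67 with a promoter in the RefSeq table, 25 (37.3%) had a start site within 1000 bases of that of a gene running the opposite way, head to head, against 19.1% of the 9900 genes that passed the filter and have a promoter there. Mrps11 and Mrpl46 are such a pair within the list. Mrps11 read 428 in Fbw7-deficient LSK, 317 in WT LSK, 529.6 in Fbw7-deficient MP and 405 in WT MP. Mrpl46 read 2931, 2267, 3197 and 2684 on the same arrays in that order, so both were lowest in WT LSK and highest in Fbw7-deficient MP. That held for 57 of the 76 members, so it does not set this pair apart. Of the 20 partners that passed the filter and are not members, 13 were above 0 in LSK (median 0.09) and 11 in MP (median 0.02). The partner of Mrps18b, Ppp1r10, had -0.05 in LSK beside 0.71 for Mrps18b. Ndufb5, a respiratory chain gene that starts opposite Mrpl47, had 0.25 and 0.15, and the mitochondrial synthetase gene Sars2, opposite Mrps12, had 0.35 and 0.30. In LSK the median log2 difference was 0.43 over the 13 members with the YY1-type motif and 0.31 over the 54 without it, and in MP 0.35 and 0.25. For the other motifs the LSK medians were closer, with 0.35 for both the 25 with and the 42 without the ETS-type motif, 0.38 and 0.35 for the 8 with and 59 without the NRF1-type motif, and 0.39 and 0.34 for the 5 with and 62 without the E-box.

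Mrpl3, a large subunit protein next to the peptidyl transferase centre in bacteria, had log2 differences of 0.22 in LSK and 0.12 in MP. By the probe set used it was in the lower part of the list. Its next brightest probe set, with values from 2042 to 2739, had 0.33 and 0.42. The dimmer ones had 0.08 and 0.25 in LSK and 0.15 and -0.17 in MP, so its place is not settled. Mrpl41, also of the large subunit, read 3008 in Fbw7-deficient LSK against 2410.4 in WT LSK, and 4117 in Fbw7-deficient MP against 3072 in WT MP (0.32 and 0.42), and its further probe set had 0.40 and 0.25. Mrps36, whose protein is now assigned to the 2-oxoglutarate dehydrogenase complex, read 903 in Fbw7-deficient LSK against 708 in WT LSK, and 1234 in Fbw7-deficient MP against 974 in WT MP (0.35 and 0.34), close to the median of the list in LSK.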

How the data were processed

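Intensity values per probe set, on a linear scale, were deposited by the authors and had been summarised with RMA per the submitters' processing notes, whose version and settings the labels do not state. RMA subtracts background and makes array distributions nearly equal, so a change shared by most genes is not seen and differences of dim genes are compressed. Values were taken to log2 here and subtracted between arrays (Python 3.11.15, pandas 2.3.3). Probe sets were named from the platform annotation: 34945 name 1 gene and 932 several. Of those naming 1 gene, 34741 were matched by gene ID to a RefSeq table of GRCm38.p6, and their symbols were taken from it. Probe sets with several genes were not used. A gene passed the filter where 1 array reached 157. With 1 array a group there was no test; 1.3-fold and 2-fold are descriptive limits. In each of 5 comparisons the 6 highest and 6 lowest members, plus a set of fixed names, could be named in the text. Outside this rule, further members were named for their site in the ribosome, a head-to-head start or a count that lists its genes. Members and lists were chosen with earlier results of these data known. RNA (20 ng) had been amplified in 2 rounds per the labels' protocols, which weights the 3′ ends of messages. The steps were tested on simulated data. The number of arrays limits precision.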

Additional observations from a re-analysis of the deposited data

Results flagged for a closer look

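For 6 members the genotype difference had opposite signs in LSK cells and in MP, each between 1 array and 1 other. This difference between populations was not tested. The share of all genes with opposite signs was not counted directly, but 70 members were above 0 in both, against 31.4% of all genes. Of all genes, 50.7% were above 0 in LSK and 49.6% in MP. Opposite signs were thus less common among members than among all genes. The LSK minus MP difference was -0.79 for Mrpl52, 0.44 for Mrpl58, 0.40 for Mrpl50, 0.33 for Mrpl11, 0.22 for Mrps14 and 0.17 for Mrpl24. For Mrpl52 both further probe sets above the filter also had opposite signs in LSK and MP. For Mrpl50 the further probe set was above 0 in both, at 0.50 in LSK and 0.25 in MP. For Mrps14 the further probe set above the filter was below 0 in both, at -0.13 and -0.22. For Mrpl11 the further probe sets above the filter were at 0.48 and 0.18 in LSK. In MP they were at -0.00 and 0.07, so the sign of Mrpl11 in MP is not settled.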

How the results depend on the processing

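The processing was varied in 8 ways, with 1 more chosen after seeing the data (genes with a mean log2 of at least 10). The median over members kept its sign in all 5 comparisons under each of them: it ran from 0.28 to 0.39 in the LSK genotype comparison, from 0.22 to 0.27 in MP, from -0.40 to -0.27 for WT LSK against WT MP, from -0.25 to -0.16 for Fbw7-deficient LSK against MP and from 0.08 to 0.14 for the difference of genotype differences. Of the 8 ways, dropping the level filter, setting it on the mean level and taking annotation symbols as given left every member value as it was. All members pass those filters and no member symbol changed, so these ways could not move the members. Among genes with a mean log2 of at least 10, 68 of 69 members were above 0 in LSK against 50.3% of 5410 genes. With the mean of all probe sets, 75 members passed. At least 1.3-fold higher were 17 in LSK, against 9.15% of all genes in this setting, and 13 in MP, against 6.41%. In the difference of differences 6 were higher, against 10.6%, and 1 lower, against 9.04%. In WT LSK against WT MP 17 were 1.3-fold lower, against 12.4%, 0 higher, against 16.8%, and 0 past 2-fold. In Fbw7-deficient LSK against MP 9 were 1.3-fold lower, against 9.05%, and 9 above 0, against 52.1%. Without probe sets of cross-reacting kinds, 73 members passed. In WT LSK against WT MP 5 of them were above 0, against 46.6% of all genes. There 0 were 1.3-fold higher, against 20.2%, and 2 were past 2-fold. In the difference of differences 1 was 1.3-fold lower, against 11.9%. Mrpl38 in MP turned to -0.094 and Mrps6 in WT LSK against WT MP to -0.044, both then read from a dimmer probe set. Centring arrays on the gene median moved the median of all genes to -0.13 in WT LSK against WT MP, and the members to -0.40. There 44 members were at least 1.3-fold lower, against 21.0% of all genes, and 0 higher, against 16.0%. Above 0 were 5, against 37.7%, and 2 were past 2-fold. In Fbw7-deficient LSK against MP 8 were above 0, against 43.5%, and 1 was past 2-fold. In the LSK genotype comparison 1 was past 2-fold. Quantile normalization gave 0 members 1.3-fold higher in WT LSK against WT MP, against 18.1% of all genes, and 2 past 2-fold. In Fbw7-deficient LSK against MP 8 were above 0, against 43.9%, and in the LSK genotype comparison 1 was past 2-fold. Shares of all genes past 2-fold were not taken in these settings. The member past 2-fold in LSK under both scalings was Mrps22, at 1.04 and 1.01. Where not shown by the change of probe set, the cause was not tested. No paired analysis was possible because every group has 1 array with the same replicate number.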

Other observations

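Mrpl30 and Mrpl53 are represented by probe sets that name a further gene, so they are not among the 76. The probe set of Mrpl30 and Gm6238 with the higher values read 5194 in Fbw7-deficient LSK against 3973 in WT LSK, and 6589.9 in Fbw7-deficient MP against 4904 in WT MP. The probe set of Mrpl53 and Ccdc142 read 1429 in Fbw7-deficient LSK against 1205 in WT LSK, and 1766 in Fbw7-deficient MP against 1638 in WT MP. On both, WT LSK had the lowest of the 4 values and Fbw7-deficient MP the highest.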
